A study of Mus musculus with 6 samples.

Results

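Most of the genes described here are used to mark microglia and macrophages, the resident and tissue-border phagocytes of the mouse retina. Other retinal cells can also express some of them. The genes were chosen by symbol from a list of 39 names, of which 38 were in the table of 28627 genes and 36 had enough reads to be tested. Lpl2, the remaining name, was not found as a symbol. The 38 genes fall into 11 homeostatic microglia genes, 10 genes shared by microglia and macrophages, 11 genes of activated microglia, 2 genes of border macrophages, and 4 genes for the ligands of the CSF1 receptor and for debris clearance.

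Poly-A RNA was sequenced from mouse retinas after oxygen-induced retinopathy, at postnatal day 15. In this model, high oxygen makes the retinal capillaries of pups regress, and the return to room air leaves a hypoxic retina in which vessels regrow in disorder. The comparison was between 3 Emcn-/- samples and 3 Emcn+/+ samples from littermates, and all 6 went through the same oxygen treatment, so no untreated retina was analysed here. Emcn codes for endomucin, a heavily sialylated mucin on the luminal face of endothelial cells. The labels do not name the allele or how it was made, and they do not say whether each sample is 1 animal, so a p-value here reflects how much these particular samples vary. Emcn itself had 1.95, 1.04 and 4.62 normalised reads in the Emcn-/- libraries, against 93.3, 80.6 and 100.5 in the Emcn+/+ libraries (log2 difference -4.83 ± 0.40 SE, limma adjusted p = 0.0143), so each library followed its label.

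Microglia enter the retina as primitive macrophages and live there under the CSF1 receptor, Csf1r, which is fed by the cytokines Csf1 and Il34. The factors PU.1 (gene Spi1) and Irf8 set up the macrophage programme, and Sall1 holds microglia in the resting state, in which P2ry12, Tmem119 and Cx3cr1 are strongly expressed. Around damage and new vessels these cells become phagocytic, and genes linked to the receptor Trem2 and its adaptor Tyrobp, such as Spp1, Cd9, Itgax, Clec7a, Cst7 and Axl, are known to be induced while the resting markers decline. In the oxygen-induced retinopathy model microglia are known to gather at the abnormal vessel tufts. In bulk retina, fewer microglia and less RNA per microglial cell cannot be told apart.

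PU.1 binds sites with the core GAGGAA, often followed by GT, and the promoters of these genes are shown for that core. Of the 38 genes, 30 had a promoter in RefSeq (GRCm38.p6), and the 250 bases before each start were searched on both strands for GAGGAA and for GAGGAAGT, which contains the shorter core. GAGGAA was present before a start of 14 of the 30 genes (46.7%), against 25.9% of all 27025 genes counted in the same way, or 23.3% of all 32851 single promoters. By class this was 6 of 10 activated genes, 5 of 8 shared genes, 2 of 7 homeostatic genes, 1 of 2 border macrophage genes and 0 of 3 ligand and clearance genes. GAGGAAGT was present only before Spp1 among the 30 genes, against 2.79% of all genes, or 2.44% of all single promoters. Both homeostatic genes with a match, Fcrls and P2ry13, are set beside 3 activated and 2 shared genes, each read 5′ to 3′ in the direction of its gene. Capitals mark the core, which appears as TTCCTC where it lies on the opposite strand.
Spp1, chr5:104434941-104435062, 113 bases before the start: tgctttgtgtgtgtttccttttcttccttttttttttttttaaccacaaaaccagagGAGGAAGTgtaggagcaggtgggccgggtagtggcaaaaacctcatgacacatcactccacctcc
Cd68, chr11:69666333-69666420, 225 bases before the start: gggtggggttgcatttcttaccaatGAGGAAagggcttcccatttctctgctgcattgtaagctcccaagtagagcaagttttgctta
Trem2, chr17:48346304-48346400, 40 bases before the start: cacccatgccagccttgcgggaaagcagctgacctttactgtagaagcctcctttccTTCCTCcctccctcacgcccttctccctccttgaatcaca
Ptprc, chr1:138175401-138175520, 158 bases before the start: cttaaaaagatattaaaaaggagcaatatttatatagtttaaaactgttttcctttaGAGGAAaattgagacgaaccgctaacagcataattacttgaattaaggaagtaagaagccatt
Laptm5, chr4:130913221-130913315, 38 bases before the start: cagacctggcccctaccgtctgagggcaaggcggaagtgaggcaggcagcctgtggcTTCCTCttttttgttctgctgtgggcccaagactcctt
P2ry13, chr3:59210883-59210987, 48 bases before the start: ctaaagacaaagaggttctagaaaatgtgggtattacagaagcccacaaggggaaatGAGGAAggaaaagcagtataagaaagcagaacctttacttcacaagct
Fcrls, chr3:87263606-87263725, 144 bases before the start: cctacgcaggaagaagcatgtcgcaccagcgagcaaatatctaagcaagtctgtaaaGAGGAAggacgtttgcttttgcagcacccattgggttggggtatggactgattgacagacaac
A match is a stretch of letters and not a measured binding site, and no binding data were analysed here.

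The 6 libraries held 14865868 to 17087621 reads on genes, and 1 read was worth 0.924 to 1.09 normalised reads, the deposited unit. A count of 0 allows up to 2.77 to 3.28 normalised reads in a library, counting error only. Between 23.8% and 42.9% of genes differed beyond counting error between replicates of a genotype, so none was a repeat of another library. The libraries carry titles in 2 number series, 144, 145 and 186 for Emcn-/- and 146, 148 and 188 for Emcn+/+, and the labels do not say what the numbers stand for. Emcn+/+ replicate 3, title 188, stood apart: it had 17641 reads of the X-inactivation gene Xist, where the other 5 libraries had 1 to 5, and 0 reads of Ddx3y, a Y-chromosome gene, where the others had 1143 to 1393. By these genes that library reads as female and the others as male, so sex is not balanced between the genotypes. The part of sex in the results was not tested. Class and list balances that turned without Emcn+/+ replicate 3 are therefore also given without it.

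No microglia or macrophage gene passed the test between genotypes. With limma, 0 of the 36 tested genes had an adjusted p under 0.05, against 1 of all 16681 genes (0.00599%), and 0 had an unadjusted p under 0.05, against 8.14% of all genes. Fits of the recovered reads with edgeR and DESeq2 also gave 0 of the 36 genes at either threshold, although DESeq2 left an adjusted p for only 4 of them. Of all 16681 genes edgeR called 0.00599%, and DESeq2 called 1.18% of the 6972 genes for which it left an adjusted p. Without Emcn+/+ replicate 3, limma called 0 of the 36 genes and 0.905% of all genes. The log2 differences, Emcn-/- minus Emcn+/+ on the log2(normalised reads + 1) scale, were positive for 13 genes and negative for 23, with a median of -0.10, against 8672 positive and 8009 negative and a median of 0.01 over all tested genes. Without Emcn+/+ replicate 3 that balance turned, with 25 of the 36 genes positive and a median of 0.085. The balance of all tested genes without that library is not given, here or beside the classes and lists below. The difference was smaller than the larger of the within-genotype SDs for 33 of the 36 genes (91.7%), against 72.2% of all tested genes. The 95% intervals reached from 0.12 to either side of the difference for Gas6 to 1.22 for Itgax, with a median of 0.60. These intervals are not adjusted for the number of genes tested. For the typical gene here, a change of about that median size would not pass the adjusted threshold, and a larger one could be missed.

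The homeostatic microglia genes were split in direction. Of the 11 genes, 7 had positive and 4 had negative differences, with a median of 0.08. Their summed level per kilobase of exon was 323, 336 and 360 normalised reads in the Emcn-/- libraries, against 338, 284 and 381 in the Emcn+/+ libraries. The Emcn-/- sums lay inside the range of the Emcn+/+ sums.

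P2ry12, the ADP receptor by which resting microglia sense injury (chromosome 3, 59216272 to 59262871, minus strand, GRCm38), had 117.8, 113.1 and 114.6 normalised reads in Emcn-/- retinas, against 126.5, 73.2 and 97.2 in Emcn+/+ retinas. The Emcn-/- libraries lay close together, and Emcn+/+ libraries lay on both sides of them. The difference was 0.25 ± 0.20 (SE; 95% interval -0.20 to 0.70; limma adjusted p = 0.752). Its neighbour on the same strand, P2ry13, a related ADP receptor, had 27.3, 27.0 and 43.4 normalised reads in Emcn-/- retinas and 39.4, 26.9 and 37.1 in Emcn+/+ retinas, which overlapped.

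Cx3cr1, the receptor for the neuronal chemokine fractalkine, had 240.5, 238.6 and 240.3 normalised reads in Emcn-/- retinas, against 233.3, 221.5 and 264.3 in Emcn+/+ retinas. The Emcn-/- values were nearly equal and sat in the middle of the Emcn+/+ range, with a difference of 0.00 ± 0.10 (95% interval -0.23 to 0.23; limma adjusted p = 0.991). Csf1r had 397.3, 399.4 and 395.5 normalised reads in Emcn-/- retinas, against 431.4, 331.8 and 490.3 in Emcn+/+ retinas. Here too the Emcn-/- libraries fell between the Emcn+/+ libraries, with a difference of -0.05 ± 0.13 (95% interval -0.35 to 0.25; limma adjusted p = 0.930). Exons of Csf1r share 15.1% of their length with the gene Hmgxb3 on the opposite strand, and it is not known if the libraries keep strand.

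Tmem119, a membrane protein used as a microglial marker, had 48.7, 44.6 and 33.3 normalised reads in Emcn-/- retinas, against 34.2, 35.2 and 50.2 in Emcn+/+ retinas. The genotypes covered the same range, with a difference of 0.08 ± 0.25 (limma adjusted p = 0.946). Its neighbour Selplg, which codes for the selectin ligand PSGL-1, had 55.5, 77.8 and 61.0 normalised reads in Emcn-/- retinas, against 79.9, 84.3 and 83.0 in Emcn+/+ retinas. All 3 Emcn-/- values were below the Emcn+/+ values, but the difference of -0.36 ± 0.18 did not pass (95% interval -0.76 to 0.05; limma adjusted p = 0.645).

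Sall1, the zinc-finger factor of resting microglia, which other retinal cells may also express, had 40.9, 50.8 and 52.7 normalised reads in Emcn-/- retinas, against 60.2, 70.4 and 63.3 in Emcn+/+ retinas. All 3 Emcn-/- libraries were below all 3 Emcn+/+ libraries, with a difference of -0.42 ± 0.19 that did not pass (95% interval -0.85 to 0.01; limma adjusted p = 0.616). Siglech, a sialic acid-binding lectin of microglia (chromosome 7, 55768178 to 55778925, plus strand), had 26.3, 23.86 and 24.9 normalised reads in Emcn-/- retinas, against 23.85, 11.1 and 9.83 in Emcn+/+ retinas. Emcn+/+ replicate 1 came just under the lowest Emcn-/- library, and the other Emcn+/+ libraries were well below it. The difference of 0.81 ± 0.36 did not pass (95% interval -0.01 to 1.63; limma adjusted p = 0.613), and it rested on 9 to 27 reads a library.

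Siglech was the 1 tested gene of the 36 whose Emcn-/- libraries were all above the Emcn+/+ libraries, against 7.48% of all tested genes. Sall1 and Selplg were the 2 whose Emcn-/- libraries were all below, against 6.94% of all tested genes. Neither count is a larger share than the background.

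The remaining homeostatic genes overlapped between genotypes. Fcrls, an Fc receptor-like protein of mouse microglia, had 96.4, 98.5 and 169.1 normalised reads in Emcn-/- retinas, against 66.4, 99.2 and 194.4 in Emcn+/+ retinas. It was the 1 homeostatic gene of the 11 in which replicate 3 was the highest library of both genotypes. Gpr34, an X-linked lysophosphatidylserine receptor, had 48.7, 69.5 and 52.7 normalised reads in Emcn-/- retinas and 59.1, 50.05 and 39.3 in Emcn+/+ retinas, and the secreted glycoprotein gene Olfml3 had 185.0, 177.4 and 199.6 in Emcn-/- retinas and 230.2, 123.3 and 163.8 in Emcn+/+ retinas.

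**Figure D1:**
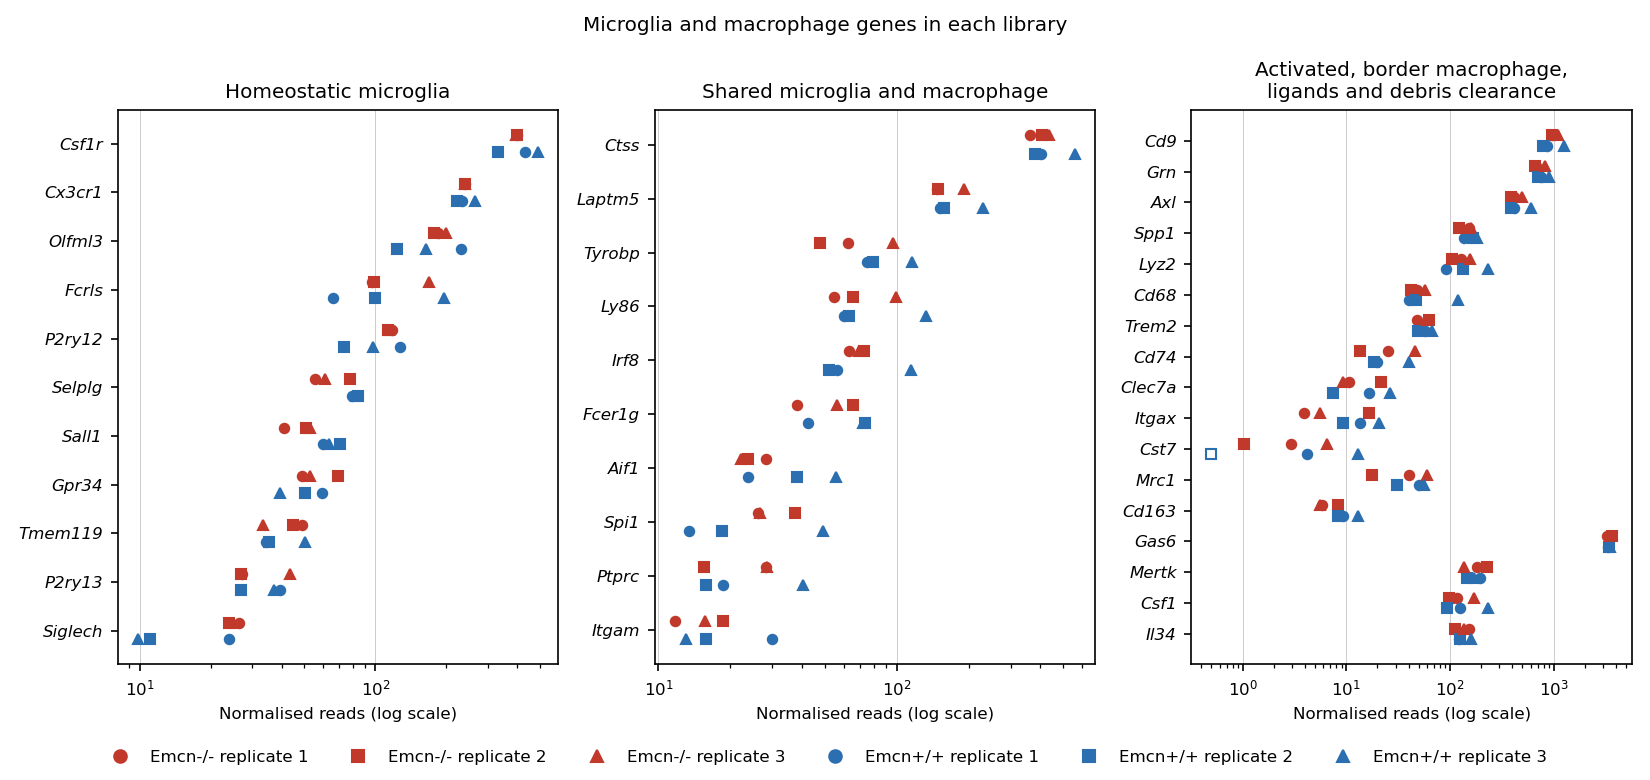
Normalised reads of the 38 genes in each of the 6 libraries, on log axes, with Emcn-/- in red above Emcn+/+ in blue and one marker shape per replicate; the open square is a value of 0 for Cst7. The red markers of P2ry12, Cx3cr1 and Csf1r lie on top of each other between the blue ones, and the blue triangle, Emcn+/+ replicate 3, is the rightmost marker of 8 of 10 shared genes.

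The genes shared by microglia and macrophages had mostly negative differences, 8 of 10, with 2 positive and a median of -0.16. Emcn+/+ replicate 3 was the highest of the 6 libraries for 8 of the 10 genes, against 17.7% of all tested genes. Their summed level per kilobase was 498, 547 and 647 normalised reads in the Emcn-/- libraries, against 550, 585 and 842 in the Emcn+/+ libraries. Ctss gave the largest part of that sum (mean 296 in Emcn-/- and 330 in Emcn+/+). Without Emcn+/+ replicate 3 the median was 0.05, with 6 of the 10 genes positive.

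Aif1, which codes for the calcium-binding protein Iba1 used to stain microglia (chromosome 17, 35170991 to 35176068, minus strand), had 28.2, 23.9 and 22.2 normalised reads in Emcn-/- retinas, against 23.9, 38 and 55.7 in Emcn+/+ retinas. Emcn+/+ replicate 1 fell among the Emcn-/- libraries, and the other Emcn+/+ libraries were above them. The difference was -0.57 ± 0.32 (95% interval -1.30 to 0.16; limma adjusted p = 0.681). Tyrobp, the signalling adaptor of Trem2, had 62.3, 47.7 and 96.1 normalised reads in Emcn-/- retinas, against 74.7, 79.7 and 115.8 in Emcn+/+ retinas. Replicate 3 was the highest library of both genotypes, and the difference was -0.42 ± 0.28 (95% interval -1.05 to 0.21; limma adjusted p = 0.710).

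Ctss, the lysosomal protease cathepsin S, had 362.2, 406.6 and 437.1 normalised reads in Emcn-/- retinas, against 404.5, 380.0 and 560.2 in Emcn+/+ retinas. Emcn+/+ replicate 3 alone lay outside the Emcn-/- range, and the difference was -0.14 ± 0.15 (limma adjusted p = 0.811). Fcer1g, the common gamma chain of Fc receptors, had 37.97, 65.4 and 56.4 normalised reads in Emcn-/- retinas and 42.5, 73.2 and 72.1 in Emcn+/+ retinas (-0.22 ± 0.28; limma adjusted p = 0.853), which overlapped.

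Both transcription factor genes of the class were highest in Emcn+/+ replicate 3. Spi1 had 26.3, 37.3 and 26.8 normalised reads in Emcn-/- retinas, against 13.5, 18.5 and 49.1 in Emcn+/+ retinas. Both the lowest and the highest library were Emcn+/+. Irf8 had 63.3, 72.6 and 69.3 normalised reads in Emcn-/- retinas, against 56.0, 51.9 and 114.7 in Emcn+/+ retinas, again with both extremes in Emcn+/+. The differences of 0.35 ± 0.44 for Spi1 and -0.02 ± 0.29 for Irf8 did not pass (limma adjusted p = 0.853 and 0.986).

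Of the rest, Ly86, a partner of a Toll-like receptor relative, had 54.5, 65.4 and 98.9 normalised reads in Emcn-/- retinas and 60.2, 63.0 and 133.2 in Emcn+/+ retinas. Laptm5, a lysosomal membrane protein of blood-lineage cells, had 147.0, 148.3 and 192.2 normalised reads in Emcn-/- retinas and 151.4, 157.6 and 230.4 in Emcn+/+ retinas. In both genes replicate 3 was the highest library of each genotype. Ptprc, the pan-leukocyte phosphatase CD45, had 28.2, 15.6 and 28.6 normalised reads in Emcn-/- retinas and 18.7, 15.8 and 40.4 in Emcn+/+ retinas. Itgam, the integrin CD11b, ran the other way within Emcn+/+, with 11.7, 18.7 and 15.7 normalised reads in Emcn-/- retinas and 30.1, 15.8 and 13.1 in Emcn+/+ retinas. Exons of the predicted gene Gm49368 on the same strand cover 68.7% of those of Itgam, so its count is uncertain.

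The activated microglia genes had the same balance as the shared genes, with 8 of 10 tested genes negative, 2 positive and a median of -0.15. Emcn+/+ replicate 3 was the highest library for 9 of the 10. Replicate 3 was the highest library of both genotypes for 7 of the 10, against 18.6% of all tested genes. Their summed level per kilobase was 1014, 958 and 1190 normalised reads in the Emcn-/- libraries, against 944, 936 and 1440 in the Emcn+/+ libraries. Most of that sum came from Cd9 (mean 497 in Emcn-/- and 473 in Emcn+/+) and Grn (mean 208 in Emcn-/- and 228 in Emcn+/+). Without Emcn+/+ replicate 3 the median was 0.12, with 7 of the 10 genes positive.

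Cd68, a lysosomal glycoprotein of phagocytes (chromosome 11, 69664213 to 69666153, minus strand), had 47.7, 42.5 and 57.3 normalised reads in Emcn-/- retinas, against 40.4, 47.3 and 120.1 in Emcn+/+ retinas. Emcn+/+ replicate 3 was far above every other library, and the rest overlapped. The difference was -0.32 ± 0.38 (95% interval -1.18 to 0.53; limma adjusted p = 0.835). Lyz2, the macrophage lysozyme, had 126.6, 103.7 and 157.1 normalised reads in Emcn-/- retinas, against 92.3, 134.4 and 231.5 in Emcn+/+ retinas. Its near copy Lyz1 had at most 1.04 normalised reads in any library. The replicate 3 libraries were again the highest of each genotype.

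Trem2, the lipid-sensing receptor of activated microglia, had 47.7, 62.2 and 60.1 normalised reads in Emcn-/- retinas, against 57.04, 49.1 and 66.6 in Emcn+/+ retinas. The genotypes covered nearly the same range, with a difference of -0.02 ± 0.20 (95% interval -0.48 to 0.44; limma adjusted p = 0.981). Spp1, the secreted matrix protein osteopontin (chromosome 5, 104435118 to 104441050, plus strand), which retinal ganglion cells are also known to make, had 153.8, 122.4 and 158.0 normalised reads in Emcn-/- retinas, against 135.9, 166.8 and 181.3 in Emcn+/+ retinas. The ranges overlapped, and the difference was -0.15 ± 0.16 (95% interval -0.51 to 0.20; limma adjusted p = 0.809).

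Grn, the lysosomal protein progranulin, had 679.6, 655.6 and 828.1 normalised reads in Emcn-/- retinas, against 761.2, 711.8 and 906.4 in Emcn+/+ retinas. Each Emcn+/+ library was above the Emcn-/- libraries other than replicate 3, and the difference was -0.14 ± 0.11 (limma adjusted p = 0.766). Itgax, the integrin CD11c, had 3.89, 16.6 and 5.545 normalised reads in Emcn-/- retinas, against 13.5, 9.27 and 20.7 in Emcn+/+ retinas. One Emcn-/- library fell among the Emcn+/+ libraries and the others were below them, at 4 to 19 reads a library, and the difference was -0.84 ± 0.54 (95% interval -2.06 to 0.38; limma adjusted p = 0.702). Cd74, the invariant chain of MHC class II, had 25.3, 13.5 and 46.2 normalised reads in Emcn-/- retinas, against 19.7, 18.5 and 40.4 in Emcn+/+ retinas, with replicate 3 highest in both genotypes (0.03 ± 0.47; limma adjusted p = 0.987).

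The tetraspanin Cd9 had 973, 965 and 1107 normalised reads in Emcn-/- retinas, against 861, 791 and 1250 in Emcn+/+ retinas. The receptor kinase Axl had 415.8, 385.9 and 492.6 normalised reads in Emcn-/- retinas, against 416.9, 390.2 and 609.4 in Emcn+/+ retinas. Emcn+/+ replicate 3 was the highest library for both. Clec7a, the beta-glucan receptor Dectin-1, which the annotation lists as a polymorphic pseudogene, had 10.7, 21.8 and 9.24 normalised reads in Emcn-/- retinas and 16.6, 7.415 and 26.2 in Emcn+/+ retinas. Cst7, the protease inhibitor cystatin F, was under the filter on low values, with 2.92, 1.04 and 6.47 normalised reads in Emcn-/- retinas and 4.15, 0 and 13.1 in Emcn+/+ retinas.

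The 2 border macrophage genes code for scavenger receptors of perivascular and meningeal macrophages. Mrc1, the mannose receptor CD206, had 39.9, 17.6 and 60.1 normalised reads in Emcn-/- retinas, against 50.8, 30.6 and 55.7 in Emcn+/+ retinas. In both genotypes replicate 2 was the lowest and replicate 3 the highest library, and the difference was -0.33 ± 0.43 (95% interval -1.30 to 0.64; limma adjusted p = 0.855). Cd163, the haemoglobin scavenger receptor, had 5.84, 8.30 and 5.545 normalised reads in Emcn-/- retinas and 9.33, 8.34 and 13.1 in Emcn+/+ retinas. It was under the filter and was not tested.

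The ligands of Csf1r and the clearance genes were split evenly in direction, with 2 of 4 positive and a median of 0.00. Csf1 had 117.8, 97.5 and 170.0 normalised reads in Emcn-/- retinas, against 124.5, 92.7 and 230.4 in Emcn+/+ retinas, with replicate 3 highest in both (-0.15 ± 0.32; limma adjusted p = 0.922). Il34, the ligand made by neurons, had 152.9, 111.0 and 135.9 normalised reads in Emcn-/- retinas, against 122.4, 124.2 and 158.3 in Emcn+/+ retinas, which overlapped (-0.02 ± 0.17; 95% interval -0.40 to 0.36; limma adjusted p = 0.979).

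Gas6, the vitamin K-dependent ligand of the receptor kinases Axl and Mertk, was the gene with the tightest estimate. It had 3307, 3654 and 3497 normalised reads in Emcn-/- retinas, against 3346, 3398 and 3536 in Emcn+/+ retinas, and the genotypes overlapped (0.02 ± 0.06; 95% interval -0.10 to 0.15; limma adjusted p = 0.925). Mertk, the receptor by which macrophages and pigment epithelium engulf dying cells and shed photoreceptor discs, had 182.1, 227.2 and 137.7 normalised reads in Emcn-/- retinas, against 193.9, 146.4 and 171.5 in Emcn+/+ retinas. The Emcn-/- libraries took both the highest and the lowest place (0.08 ± 0.19; limma adjusted p = 0.932). Marker genes for retinal pigment epithelium had positive differences in 13 of 13 tested, with a median of 0.81, and their summed level per kilobase was 7067 to 8924 normalised reads in Emcn-/- libraries, against 4123 to 6359 in Emcn+/+ libraries. The part of that tissue in the Mertk value was not tested.

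**Figure D2:**
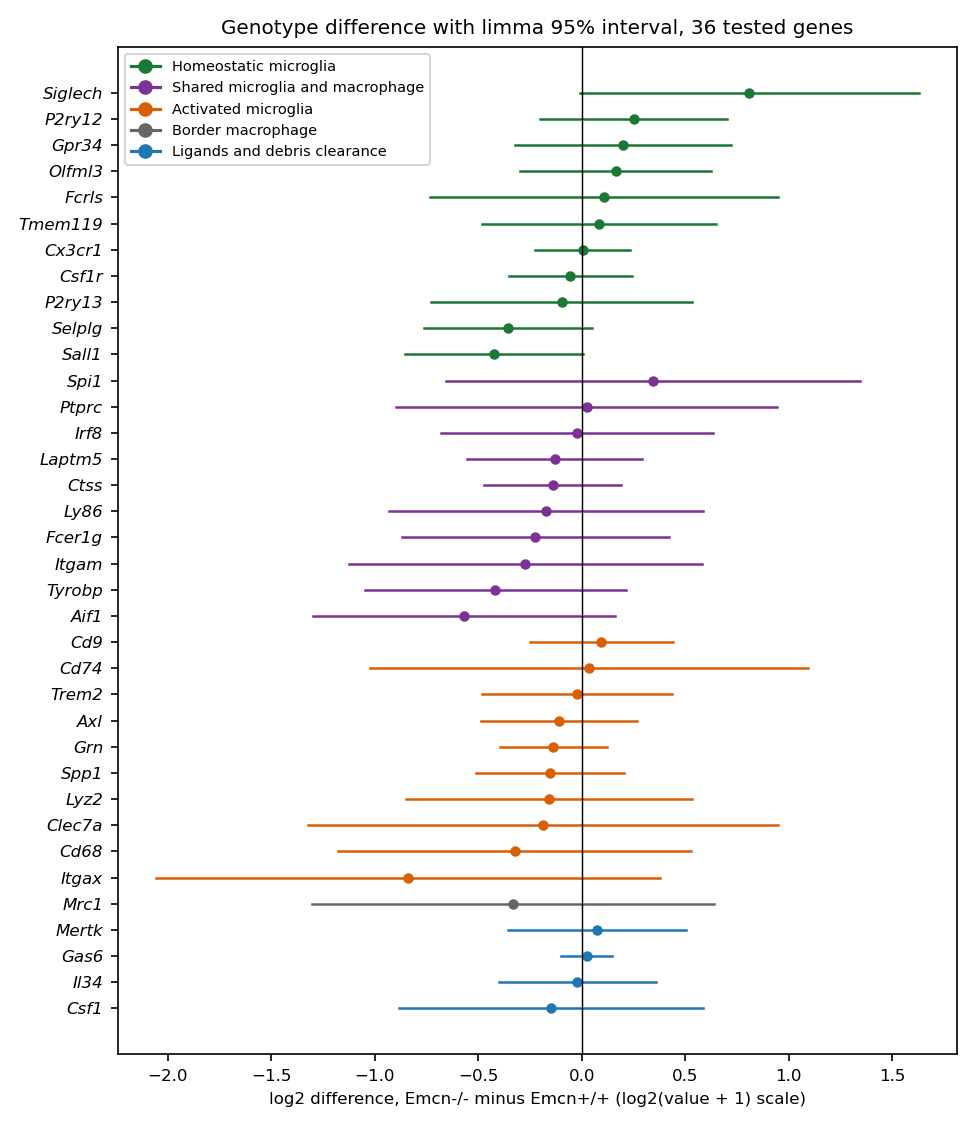
Log2 difference of each of the 36 tested genes, Emcn-/- minus Emcn+/+, as a point with its limma 95% interval as a line, coloured by class. Every interval includes 0, from the narrow one of Gas6 (-0.10 to 0.15) to the wide one of Itgax (-2.06 to 0.38), while 8 of 10 shared and 8 of 10 activated genes lie left of 0.

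Per kilobase of exon the levels ran over about 3 powers of 10. Gas6 was the highest, at 1368 ± 68.3 normalised reads per kilobase in Emcn-/- retinas and 1345 ± 38.6 in Emcn+/+ retinas (SD, n = 3 each), followed by Cd9 (497 ± 39.2 in Emcn-/- and 473 ± 121 in Emcn+/+), Ctss (296 ± 27.7 in Emcn-/- and 330 ± 72.0 in Emcn+/+) and Grn (208 ± 26.9 in Emcn-/- and 228 ± 29.1 in Emcn+/+). Tyrobp, Lyz2, Spp1 and Axl came next, below Grn, and the libraries of each overlapped with those of the next among them. Csf1r was the highest homeostatic gene, at 68.8 ± 0.331 in Emcn-/- and 72.4 ± 13.9 in Emcn+/+, above Cx3cr1 at 53.2 ± 0.233 in Emcn-/- and 53.2 ± 4.90 in Emcn+/+. Sall1 (9.14 ± 1.204 in Emcn-/- and 12.3 ± 1.00 in Emcn+/+) and Siglech (7.40 ± 0.360 in Emcn-/- and 4.41 ± 2.29 in Emcn+/+) were the lowest of that class. Over the 6 libraries together Ptprc closed the order, at 1.32 ± 0.406 in Emcn-/- and 1.36 ± 0.736 in Emcn+/+, while in Emcn-/- retinas alone Cd163 was lower, at 1.202 ± 0.277. The length used was every annotated exon base of a gene, 18313 for Ptprc, so the order depends on the annotation.

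**Figure D3:**
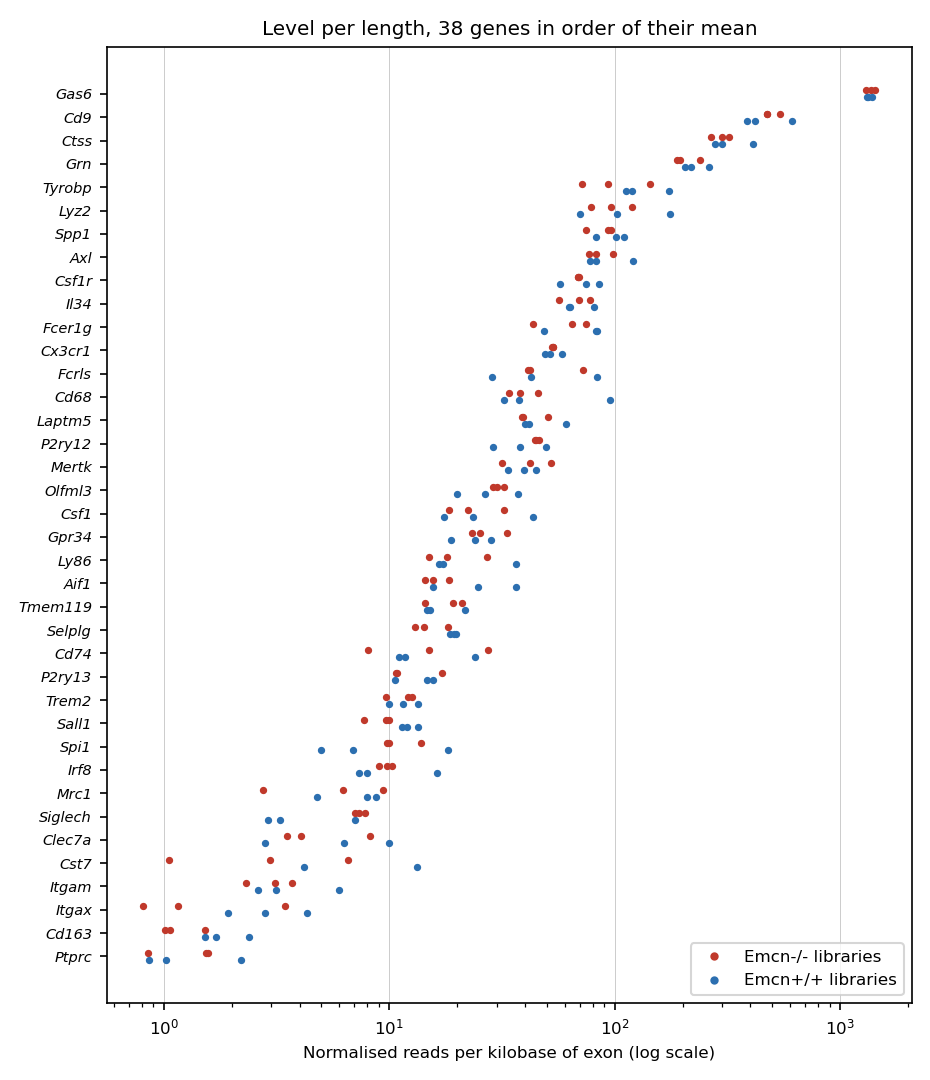
Normalised reads per kilobase of exon of the 38 genes in each library, on a log axis, ordered by their mean, with Emcn-/- in red and Emcn+/+ in blue. Red and blue points interleave for nearly every gene, between Gas6 at the top (1368 in Emcn-/- and 1345 in Emcn+/+) and Ptprc at the bottom (1.32 in Emcn-/- and 1.36 in Emcn+/+).

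The spread within a genotype differed between the classes. As the median SD of log2 values over genes, homeostatic genes had 0.19 among the Emcn-/- libraries and 0.29 among the Emcn+/+ libraries. Shared genes had 0.30 among Emcn-/- and 0.60 among Emcn+/+, and activated genes 0.21 among Emcn-/- and 0.45 among Emcn+/+. Over all tested genes these medians were 0.12 among Emcn-/- and 0.14 among Emcn+/+. The Emcn+/+ SD was the larger one for 8 of 11 homeostatic, 9 of 10 shared and 7 of 10 activated genes, against 59.6% of all tested genes.

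For 5 of the 11 homeostatic genes the SD among the Emcn-/- libraries was below the SD that counting reads alone gives, against 32.0% of all tested genes. Cx3cr1 and Csf1r were the closest, with an SD of 0.01 each among Emcn-/- libraries, against 0.13 and 0.29 among Emcn+/+ libraries. Spi1 (0.28 among Emcn-/- and 0.94 among Emcn+/+) and Cd68 (0.21 among Emcn-/- and 0.84 among Emcn+/+) also spread more among Emcn+/+ libraries. Itgax (0.97 among Emcn-/- and 0.54 among Emcn+/+), Mrc1 (0.87 among Emcn-/- and 0.45 among Emcn+/+) and Cd74 (0.85 among Emcn-/- and 0.60 among Emcn+/+) spread more among Emcn-/- libraries. With 3 libraries a genotype, these SDs are a description and were not tested.

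**Figure D4:**
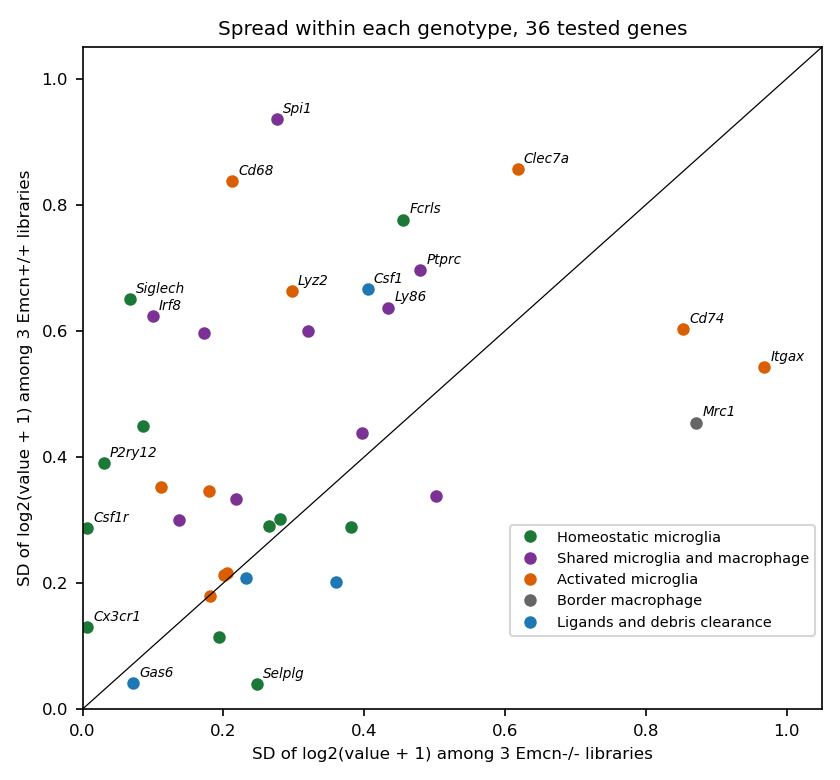
SD of log2(value + 1) among the 3 Emcn-/- libraries (x axis) against the SD among the 3 Emcn+/+ libraries (y axis) for each of the 36 tested genes, coloured by class, with the line of equal SD. Spi1, Cd68 and Irf8 lie far above the line, and Itgax, Mrc1 and Cd74 below it.

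Most of the Emcn+/+ spread of the shared and activated genes came with 1 library. Each gene was centred on its mean over the 6 libraries, and the centred log2 values were averaged by class. Homeostatic genes averaged -0.04, 0.04 and 0.10 in the Emcn-/- libraries, against 0.06, -0.21 and 0.05 in the Emcn+/+ libraries. Shared genes averaged -0.21, -0.10 and 0.08 in the Emcn-/- libraries, against -0.20, -0.12 and 0.55 in the Emcn+/+ libraries. Activated genes averaged -0.23, -0.09 and 0.05 in the Emcn-/- libraries, against -0.11, -0.22 and 0.60 in the Emcn+/+ libraries. Emcn+/+ replicate 3 thus had the highest average of shared and of activated genes. In homeostatic genes its centred average was below those of Emcn-/- replicate 3 and Emcn+/+ replicate 1, although its summed level per kilobase was the highest of the 6 and it was the highest library for 4 of the 11 genes (36.4%, against 17.7% of all tested genes).

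Activated minus homeostatic averages were -0.18, -0.13 and -0.05 in the Emcn-/- libraries, against -0.17, -0.01 and 0.55 in the Emcn+/+ libraries. Within Emcn-/-, replicate 3 stood above replicates 1 and 2 by a median of 0.25 for activated and 0.18 for shared genes and -0.01 for homeostatic genes. Within Emcn+/+, the same medians were 0.72 for activated, 0.72 for shared and 0.02 for homeostatic genes. The replicate 3 libraries are those with titles in the 180s. Within the libraries titled in the 140s, 2 of each genotype, the median difference was 0.10 for homeostatic, -0.05 for shared and 0.02 for activated genes. Between the single libraries of each genotype titled in the 180s it was -0.14 for homeostatic, -0.39 for shared and -0.25 for activated genes, with no replicate.

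**Figure D5:**
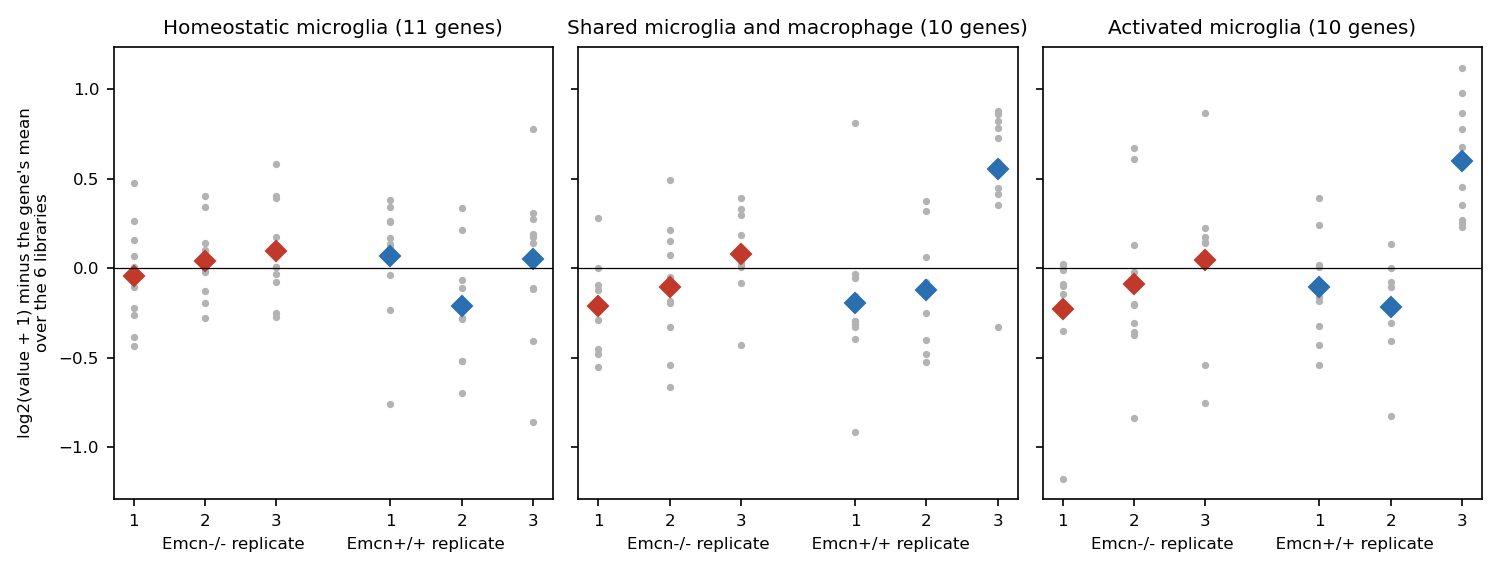
Log2 values of the tested genes centred on each gene's mean over the 6 libraries, by library, for the homeostatic, shared and activated classes; grey points are genes and diamonds are class means, red for Emcn-/- and blue for Emcn+/+. The diamond of Emcn+/+ replicate 3 lies at 0.55 for shared and 0.60 for activated genes and at 0.05 for homeostatic genes.

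Other gene lists moved with the same library. Of 17 interferon response genes, 16 were highest in Emcn+/+ replicate 3, and their summed level per kilobase was 728 to 1025 normalised reads in Emcn-/- libraries, against 713 to 4739 in Emcn+/+ libraries. Of 15 glial reactivity genes, 13 were highest in Emcn+/+ replicate 3 and 14 had replicate 3 as the highest library of both genotypes, with summed levels of 2196 to 3585 in Emcn-/- libraries, against 1946 to 4964 in Emcn+/+ libraries. Their part in the values of the shared and activated microglia genes was not tested.

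Defining markers of blood leukocytes, which could carry some of the same genes, had few reads. Of 14 listed blood monocyte genes 12 had a row and 4 were tested, and the defining genes Ccr2, Ly6c2 and Plac8 had at most 2.92 normalised reads in any Emcn-/- library and at most 15.3 in any Emcn+/+ library. Ms4a4c was at 0 in all 3 Emcn-/- libraries and had 0, 0 and 16.4 normalised reads in Emcn+/+ libraries. Plac8 and Ly6c2 were likewise highest in Emcn+/+ replicate 3, at 15.3 and 7.64. Summed per kilobase, the monocyte list, most of it from fibronectin (Fn1), had 285 to 469 normalised reads in Emcn-/- libraries, against 328 to 561 in Emcn+/+ libraries. Of 14 listed neutrophil genes 11 had a row and 3 were tested, and S100a8, S100a9, Ngp and Camp had at most 3.11 normalised reads in any library. The 3 tested genes, which cells of other kinds can also express, were higher, with Mmp9 at 438 to 471 normalised reads in Emcn-/- libraries and 392.05 to 479 in Emcn+/+ libraries, Lcn2 at 101 to 141 in Emcn-/- libraries and 79.7 to 242 in Emcn+/+ libraries, and Csf3r at 23.4 to 30.5 in Emcn-/- libraries and 24.9 to 41.5 in Emcn+/+ libraries.

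Among further microglial genes outside the 39 names, 0 passed limma. The CSF1 receptor and transcription factor list, which shares 6 genes with the members, had 8 of 20 positive, with a median of -0.02, against 14 of 20 and a median of 0.081 without Emcn+/+ replicate 3. After Sall1 its smallest p belonged to the TGF-beta mediator Smad3 (-0.17 ± 0.08; limma adjusted p = 0.643). Mef2a, which had the most normalised reads without regard to length, was at -0.02 ± 0.06. A list of other homeostatic genes had 10 of 15 positive and a median of 0.04, led by the cystatin gene Cst3 (0.13 ± 0.08; limma adjusted p = 0.689) and Sparc (0.14 ± 0.14). In that list Crybb1, which also codes for a lens crystallin, had 14.6, 24.9 and 31.4 normalised reads in Emcn-/- retinas, against 3140, 8.34 and 6.55 in Emcn+/+ retinas.

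A list of other activated genes had 13 of 24 positive and a median of 0.02, and without Emcn+/+ replicate 3 it had 18 of 24 positive and a median of 0.17. Apoe, the lipid carrier made by Müller glia and microglia, averaged 14199 ± 388 normalised reads in Emcn-/- retinas and 10979 ± 1015 in Emcn+/+ retinas (SD, n = 3 each) without overlap (0.37 ± 0.07; limma adjusted p = 0.374), and DESeq2 called it. Gpnmb, a lysosomal glycoprotein that pigment cells also make, averaged 468 ± 229 in Emcn-/- retinas and 259 ± 88.3 in Emcn+/+ retinas, also without overlap (0.82 ± 0.34; limma adjusted p = 0.599). These 2 genes were the only tested ones of the 24 without overlap, against 7.48% of all tested genes above and 6.94% below. With all 6 libraries only they of the 24 had a limma unadjusted p under 0.05, against 8.14% of all tested genes. Both counts are near the background. Without Emcn+/+ replicate 3 the unadjusted count was 9 of the 24, and no share of all genes in that fit is given here. In either fit 0 passed the adjusted threshold.

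Complement genes of microglia had 2 of 8 positive, with a median of -0.04, and 7 of 8 were highest in Emcn+/+ replicate 3. Without that library 5 of 8 were positive, with a median of 0.25. C1qb had 252.2, 232.4 and 339.2 normalised reads in Emcn-/- retinas, against 241.65, 223.4 and 435.7 in Emcn+/+ retinas. The anaphylatoxin receptor genes C5ar1 (-0.85 ± 0.43) and C3ar1 (-0.48 ± 0.42) had the smallest p of the list and did not pass (limma adjusted p = 0.646 and 0.781). The receptors Tyro3, Axl and Mertk with their ligands had 3 of 5 positive and a median of 0.02, and 1 of 5 positive without Emcn-/- replicate 2. A longer list of border macrophage genes, which holds both members of that class, had 1 of 7 positive and a median of -0.30, against 4 of 7 and 0.14 without Emcn-/- replicate 2. Its smallest p were those of the scavenger receptor genes Colec12 (0.52 ± 0.29) and Stab1 (-0.30 ± 0.26), and Lyve1, its most abundant gene and also a lymphatic marker, was at -0.01 ± 0.10.

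Markers of other cells that a dissected retina can hold gave 0 calls with limma. Ciliary body and iris genes had 9 of 9 positive and a median of 0.54, with Col9a1 at 0.54 ± 0.11 and Col9a2 at 0.60 ± 0.14, both called by DESeq2, and their summed level was 2467 to 2742 in Emcn-/- libraries, against 1699 to 2482 in Emcn+/+ libraries. Among pigment epithelium genes Dct (1.11 ± 0.26) and Ttr (0.92 ± 0.24) had the smallest p. Of the 13 tested, 9 had a limma unadjusted p under 0.05, against 8.14% of all tested genes. Rlbp1 had the most normalised reads (0.18 ± 0.11). Per kilobase Ttr was higher over the 6 libraries together, at 2580 against 2431 for Rlbp1. Endothelial genes had 3 of 14 positive and a median of -0.14, with Kdr at -0.26 ± 0.08 and Vwf at -0.73 ± 0.30. Emcn-/- replicate 2 was the lowest library for 12 of the 14, and without it 10 of 14 were positive, with a median of 0.10. Proliferation genes had 6 of 12 positive and a median of 0.00, with Plk1 at 0.40 ± 0.19, Ccna2 at -0.24 ± 0.12 and Pcna at 0.13 ± 0.09.

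Interferon response genes had 1 of 17 positive, with a median of -0.81, and without Emcn+/+ replicate 3 the median was 0.12 with 12 of 17 positive. Glial reactivity genes had 5 of 15 positive and a median of -0.05, against 14 of 15 and a median of 0.43 without that library, and 11 of 15 and a median of 0.09 without Emcn-/- replicate 2. Monocyte genes had 2 of 4 positive, neutrophil genes 1 of 3, lymphocyte genes 2 of 2, dendritic cell genes 4 of 5 and red cell genes 1 of 5. Red cell genes had 4 of 5 positive without Emcn+/+ replicate 3 or without Emcn-/- replicate 2, and neutrophil genes 2 of 3 without Emcn-/- replicate 2. The MHC class II regulator Ciita, at 14.9 ± 3.55 normalised reads in Emcn-/- retinas and 27.5 ± 2.99 in Emcn+/+ retinas, was the dendritic gene with the smallest p (-0.86 ± 0.29; limma adjusted p = 0.522).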

How the data were processed

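Poly-A RNA-seq libraries of 6 retina samples (1.3 µg of RNA each, postnatal day 15) were analysed, per the labels' protocols. The protocol text covers strand-marked and unmarked kits alike. The genome build was GRCm38, per the submitters' processing notes, and the sources used here name no aligner or counter. Each gene has 1 deposited signal value per library, which from the values are read counts the authors divided by 1 factor per library, with no adjustment for gene length. Of these values, 100% were whole multiples of that library's step (tolerance 0.001 reads), so read counts were recovered. Of the 28627 gene IDs, 27390 were in GENCODE M21, the source of positions and exonic lengths, and 98.4% of tested genes had a length. A symbol on several IDs (21 symbols) took the ID with the highest mean.

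limma 3.58.1 (R 4.3.3) was fitted to log2(value + 1) of the 16681 genes kept by edgeR's expression filter (minimum count 10) on the recovered reads. The model had genotype alone, a mean-variance trend, 2-sided tests and Benjamini-Hochberg adjustment, with calls at an adjusted p under 0.05. Such differences understate changes of low genes. edgeR 4.0.16 (quasi-likelihood, TMM) and DESeq2 1.42.0 on the recovered reads, other scalings, filters and pseudocounts, a length trend, title series and each library left out were alternatives. The code was tested on simulated counts.

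The members, their classes and 17 further gene lists were chosen with earlier results of these data known. Library values were given for called members, for the 4 members of each class with the smallest p and for 14 more members whatever their values. Members beyond that rule were added after their values were seen. Of each further list, the 2 genes with the smallest p and the gene with the highest mean of normalised reads were taken. This was shortened here for lists of other tissues. Replicate numbers follow sample order.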

Additional observations from a re-analysis of the deposited data

How the results depend on the processing

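No microglia or macrophage gene passed an adjusted p of 0.05 under any setting, and the lowest adjusted p of any of them was 0.110, for Cd9 without Emcn+/+ replicate 3. Over all genes, the count of calls was 82 with DESeq2 (67 lower and 15 higher), 67 with DESeq2 without independent filtering (48 lower and 19 higher) and 42 in the libraries titled in the 140s alone (34 lower and 8 higher), the last 2 being settings chosen after seeing the data. It ran from 0 to 151 with 1 library left out (0 to 113 lower and 0 to 38 higher). The Emcn difference ran from -5.23 to -4.50 in those fits, and its call was lost without Emcn-/- replicate 1 (limma adjusted p = 0.155), Emcn+/+ replicate 1 (0.0924) or Emcn+/+ replicate 2 (0.191). The cause was not tested.

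The median of the homeostatic genes ran from -0.050 to 0.076 (0.083 with all libraries), that of the shared genes from -0.27 to 0.047 and that of the activated genes from -0.23 to 0.12 with 1 library left out. The shared and activated medians were positive only without Emcn+/+ replicate 3 among these fits, and the homeostatic median was negative only without Emcn+/+ replicate 1 or 2. A term for the title series left all 3 medians as they were. It could not move them, because the libraries of each genotype are split over the title series in the same way. The part of the title series in these medians was therefore not tested by that term.

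Under other settings the sign turned for Cx3cr1 (edgeR -0.0055, DESeq2 with and without filtering -0.0031, TMM scaling -0.0030, length trend removed -0.011) and Ptprc (edgeR -0.032, DESeq2 with and without filtering -0.040). With the length trend removed it also turned for Irf8 (0.0041), Cd74 (-0.038) and Gas6 (-0.032). In the libraries titled in the 140s it turned for Csf1r (0.074), Irf8 (0.33), Cd68 (0.042), Trem2 (0.041), Cd74 (-0.043), Lyz2 (0.040), Clec7a (0.42) and Il34 (0.079). With 1 library left out, 11 of 36 genes kept their sign in all 6 fits and 25 did not. No such count over all tested genes is given here. The log2 differences of the 25 ranged as follows, lowest to highest. They were Tmem119 -0.027 to 0.26, Cx3cr1 -0.050 to 0.076, Csf1r -0.21 to 0.071, Olfml3 -0.054 to 0.39, Fcrls -0.24 to 0.52, P2ry13 -0.32 to 0.017, Itgam -0.50 to 0.066, Ptprc -0.23 to 0.42 and Ctss -0.25 to 0.032. Next came Ly86 -0.41 to 0.20, Laptm5 -0.26 to 0.062, Spi1 -0.025 to 0.87, Irf8 -0.23 to 0.34, Cd68 -0.62 to 0.16, Trem2 -0.13 to 0.096, Cd74 -0.39 to 0.46 and Lyz2 -0.47 to 0.19. The others were Cd9 -0.035 to 0.30, Axl -0.23 to 0.089, Clec7a -0.65 to 0.20, Mrc1 -0.71 to 0.14, Csf1 -0.44 to 0.22, Il34 -0.13 to 0.10, Mertk -0.098 to 0.26 and Gas6 -0.011 to 0.062.

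Depth limited the low genes: Itgax, Clec7a, Itgam and Siglech rested on few reads, and intervals and limits cover counting error or the spread of 3 libraries. No paired analysis was possible because replicates were numbered by sample order and the labels pair none of them. Strand, gene models that overlap, RNA from neighbouring tissue and the differing sex of Emcn+/+ replicate 3 were not resolved.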
